A study of Homo sapiens with 12 samples.

Results

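The LDL receptor family and its degrader MYLIP were followed across CAOV3 cells given ovarian cancer ascites, the fibrate drug bezafibrate, or both. The members are the 7 genes VLDLR, LRP8, LRP1, LRP2, LRP10, SORL1 and MYLIP. They were picked by gene symbol from the count tables, and each of the 7 symbols matched 1 of the 19677 genes listed. Of these, 6 had counts enough to be tested, and LRP2 did not.

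Receptors of this family sit in the plasma membrane or in endosomes, bind lipoproteins, proteases and other extracellular ligands through cysteine-rich repeats, and carry them into the cell by clathrin-mediated endocytosis. Their level is set at several steps. Sterol shortage raises transcription of some lipid genes through SREBP factors, oxysterols act through the LXR nuclear receptors, and MYLIP (also called IDOL) is an LXR-induced ubiquitin ligase that marks family receptors, VLDLR and LRP8 among them, for breakdown in lysosomes. Fibrates act on another set of nuclear receptors, the PPARs, which switch on genes of fatty acid use and storage.

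CAOV3 is an established human line derived from an ovarian carcinoma, labelled as high grade serous and wild type, and all groups were grown in DMEM with 10% fetal bovine serum. The 12 libraries form 4 groups of 3: control cells with DMSO, ascites cells with 10% ovarian cancer ascites and DMSO, bezafibrate cells with 200 uM of the drug, and combination cells with both treatments. Treatment lasted 16 hours, a time given for the 3 treated groups. DMSO is named for the 2 groups without the drug only, so a difference in solvent cannot be told apart from the drug. Neither the origin of the ascites nor whether replicates were grown as separate cultures is given, so the p-values measure the spread between these libraries, which may be technical.

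Total counts ranged from 11831093 to 18762759 per library. The first principal component, with 37.0% of the variance, split the libraries by the drug, 6 on each side, and combination replicate 3 stood apart on the second at -22.4 against -4.37 to 9.84 for the other libraries. Leaving that library out changed 2 calls on members: LRP8 was no longer called in the combination against ascites (edgeR adjusted p 0.0618), and SORL1 became called in bezafibrate against control (edgeR adjusted p 0.0369). In control cells the epithelial keratins KRT8 and KRT18 were at 3005 and 1784 CPM (CPM, counts scaled to a common library size by TMM). EPCAM was at 27.6 CPM, while the serous markers PAX8 and MUC16 had only 16 and 4 counts over the 3 control libraries. Of 17 markers of blood, stromal and mesothelial cells, 6 had 0 counts in all libraries (PTPRC, TYROBP, CD163, CD3E, PPBP and PF4). By counting error alone such a gene could still be at 0.0365 CPM when the 6 ascites-treated libraries are pooled. The rest of the 17 had counts. In control LUM was at 183.9 CPM, CD68 at 72.5, COL1A1 at 6.23, COL3A1 at 3.90 and CD14 at 2.71. The list as a whole therefore does not show that RNA of other cells was absent. CPM values are not divided by gene length, so levels below are compared between groups for the same gene and not between genes. Bulk RNA cannot tell fewer cells with a transcript from less transcript per cell.

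The stretches just upstream of 4 members are shown because they span the range of responses described below: VLDLR had the largest change, LRP8 is its closest relative among the members, MYLIP is the degrader, and LRP10 did not pass the test with either treatment. Each is the 250 bases before the gene's start in RefSeq (GRCh38.p14), read 5′ to 3′ on the gene's strand, with capitals marking matches to the motifs named in the next paragraph. The windows are chr9:2621537-2621786 on the plus strand for VLDLR, chr1:53328071-53328320 on the minus strand for LRP8, chr6:16128836-16129085 on the plus strand for MYLIP and chr14:22871490-22871739 on the plus strand for LRP10.
VLDLR: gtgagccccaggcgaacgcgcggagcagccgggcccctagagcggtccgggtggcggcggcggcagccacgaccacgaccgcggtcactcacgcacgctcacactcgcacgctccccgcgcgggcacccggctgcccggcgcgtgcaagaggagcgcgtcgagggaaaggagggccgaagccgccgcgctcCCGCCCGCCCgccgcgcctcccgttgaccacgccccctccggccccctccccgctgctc
LRP8: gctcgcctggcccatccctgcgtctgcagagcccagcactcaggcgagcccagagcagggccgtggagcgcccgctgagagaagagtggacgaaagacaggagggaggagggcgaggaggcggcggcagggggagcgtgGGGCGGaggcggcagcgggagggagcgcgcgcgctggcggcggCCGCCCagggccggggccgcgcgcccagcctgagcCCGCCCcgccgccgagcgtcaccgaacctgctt
MYLIP: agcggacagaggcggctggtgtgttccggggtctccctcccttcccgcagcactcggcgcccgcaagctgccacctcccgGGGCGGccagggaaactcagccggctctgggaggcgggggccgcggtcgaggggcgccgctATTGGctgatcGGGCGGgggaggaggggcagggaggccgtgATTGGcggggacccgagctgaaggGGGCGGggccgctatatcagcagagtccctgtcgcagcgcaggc
LRP10: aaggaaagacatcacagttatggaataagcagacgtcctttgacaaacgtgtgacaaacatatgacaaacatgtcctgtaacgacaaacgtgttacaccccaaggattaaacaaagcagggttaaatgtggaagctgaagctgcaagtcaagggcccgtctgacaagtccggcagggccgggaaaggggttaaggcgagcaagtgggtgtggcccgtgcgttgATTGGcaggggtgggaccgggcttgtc

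The windows of all 7 members were searched on both strands for 8 motifs, and the shares that follow are of the 35116 RefSeq promoter windows of the same length. The nuclear receptor hexamer AGGTCA, found in 12.1% of windows, matched none of the 7. Its repeats AGGTCANAGGTCA (0.0171% of windows), the type bound by PPAR with RXR, and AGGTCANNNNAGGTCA (0.0142%), the type bound by LXR with RXR, both contain that hexamer and also matched none. The sterol regulatory element TCACNCCAC (0.883%) and the ATF4 composite site TGATGNAA (3.14%) matched none. The GC box GGGCGG, in 42.6% of windows, was present in every member except LRP10, with 2 overlapping matches at -59 to -50 in VLDLR and 3 matches each in LRP8, LRP2 and MYLIP. CCAAT, in 32% of windows, matched LRP10 at -27 to -23 and MYLIP at 2 places, and the E-box CACGTG, in 6.34%, matched SORL1 at -177 to -172. A missing match says only that these letters are not in this window.

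VLDLR (ENSG00000147852.17; chr9:2621787-2660056, plus strand, GRCh38.p14) takes up triglyceride-rich lipoproteins and also binds the signalling protein reelin. Its level was 11.3, 13.2 and 12.8 CPM in the 3 control libraries and 10.5, 11.3 and 12.4 CPM with ascites. With bezafibrate it was 69.3, 68.3 and 66.8 CPM, and with both treatments 67.6, 64.3 and 63.7 CPM. Every library with the drug therefore lay far above every library without it, and the control and ascites libraries overlapped, as did the bezafibrate and combination libraries. The rise with bezafibrate against control was 5.49-fold (95% interval 5.00 to 6.03), or 2.46 ± 0.0669 (SE) on the log2 scale (edgeR adjusted p 7.65e-27). With ascites present the drug raised it 5.71-fold (95% interval 5.18 to 6.30; edgeR adjusted p 1.18e-26). By p-value VLDLR ranked 9 of the 12470 genes tested in both of these comparisons.

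LRP8 (ENSG00000157193.18; chr1:53242364-53328070, minus strand), the closest relative of VLDLR and a second receptor for reelin, moved in the same direction by much less. It was at 30.3, 31.7 and 33.9 CPM in control and 31.0, 31.4 and 30.6 CPM with ascites. It was at 36.4, 38.3 and 36.1 CPM with bezafibrate and 35.02, 35.2 and 35.7 CPM with both. All 6 libraries with the drug lay above all 6 without it, and the combination libraries lay just below the bezafibrate ones without overlap. The log2 fold change was 0.21 for bezafibrate against control (SE 0.0591, edgeR adjusted p 0.00848) and 0.19 for the combination against ascites (SE 0.0615, edgeR adjusted p 0.029). These 2 calls were not firm: with DESeq2 the adjusted p values were 0.0532 and 0.132, and the first was lost without control replicate 1 or bezafibrate replicate 2 (edgeR adjusted p 0.0765 and 0.0597). The second was lost without any 1 of the 6 libraries it compares (edgeR adjusted p 0.0543 to 0.0981). Averaged over both conditions, 6 libraries against 6, the rise of 1.15-fold (95% interval 1.08 to 1.22; edgeR adjusted p 0.000329) was called in all 20 alternatives run.

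LRP1 (ENSG00000123384.14; chr12:57128483-57213361, plus strand), a large scavenger receptor for proteases, protease inhibitor complexes and lipoprotein remnants, also rose with the drug. Its level was 49.7, 52.1 and 46.3 CPM in control and 49.7, 44.7 and 50.4 CPM with ascites. It reached 62.0, 53.6 and 66.2 CPM with bezafibrate and 60.0, 62.8 and 62.6 CPM with both. All 6 libraries with the drug lay above all 6 without it, with bezafibrate replicate 2 nearest to the untreated range. The fold was 1.22 without ascites (95% interval 1.12 to 1.33; edgeR adjusted p 0.000907) and 1.276 with it (95% interval 1.17 to 1.40; edgeR adjusted p 9.83e-05). Both calls held in all 21 alternatives run.

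SORL1 (ENSG00000137642.13; chr11:121452314-121633763, plus strand) is a sorting receptor that moves cargo between endosomes and the trans-Golgi network and carries the family's ligand-binding repeats beside a VPS10 domain. It was at 301.1, 296.3 and 303.8 CPM in control and lower, at 284.3, 281.9 and 287.2 CPM, with ascites. Control and ascites did not overlap, a separation that 12.7% of all tested genes had. The bezafibrate libraries were at 311.1, 315.2 and 326.5 CPM, above control without overlap, and the combination libraries at 293.1, 318.6 and 310.8 CPM overlapped both. The drug's log2 fold change was 0.08 without ascites (SE 0.032, edgeR adjusted p 0.0844) and 0.11 with it (SE 0.0325, edgeR adjusted p 0.0135). The second call was lost without ascites replicate 2 or combination replicate 2 (edgeR adjusted p 0.0589 and 0.106). Averaged over both conditions the rise was 1.07-fold (95% interval 1.03 to 1.10; edgeR adjusted p 0.00129), called in all 20 alternatives. This is the smallest change among the called members, and SORL1 had 3611 to 5857 counts per library.

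LRP10 (ENSG00000197324.9; chr14:22871740-22881713, plus strand), a receptor that cycles between the trans-Golgi network and endosomes, did not pass the test in any comparison. Its group means were 128.8 ± 7.57 CPM in control, 131.1 ± 1.998 with ascites, 125.7 ± 4.52 with bezafibrate and 129.3 ± 3.58 with both (SD, n = 3). The 4 groups overlapped throughout. The averaged drug effect was -0.03 on the log2 scale, with a 95% interval of -0.09 to 0.03 (edgeR adjusted p 0.526). LRP2 (ENSG00000081479.15; chr2:169127109-169362534, minus strand), also called megalin and known from absorptive epithelia such as the kidney tubule, had 3, 2, 6 and 2 counts in total over the control, ascites, bezafibrate and combination libraries. At most 3 counts fell in any library, so no change in LRP2 was detectable at this depth.

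MYLIP (ENSG00000007944.15; chr6:16129086-16163887, plus strand) encodes the ligase that marks receptors of this family for breakdown. Its level was 11.7, 11.9 and 10.8 CPM in control and 12.9, 13.04 and 11.9 CPM with ascites. It was 13.7, 15.1 and 14.2 CPM with bezafibrate and 13.3, 12.4 and 13.4 CPM with both. The bezafibrate libraries were the highest and overlapped none of the others, while the combination libraries overlapped those with ascites alone. The drug raised MYLIP 1.25-fold against control (95% interval 1.10 to 1.43; edgeR adjusted p 0.0101), and this call was lost with DESeq2 (adjusted p 0.066) and without control replicate 3 or bezafibrate replicate 2 (edgeR adjusted p 0.0612 and 0.0646). With ascites present the fold was 1.04 (95% interval 0.909 to 1.19; edgeR adjusted p 0.768). The averaged rise of 1.14-fold was called by edgeR (adjusted p 0.0282) and not by DESeq2 (adjusted p 0.132). It was also lost without control replicate 3, ascites replicate 3, bezafibrate replicate 2 or combination replicate 1 (edgeR adjusted p 0.0574 to 0.077).

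**Figure D1:**
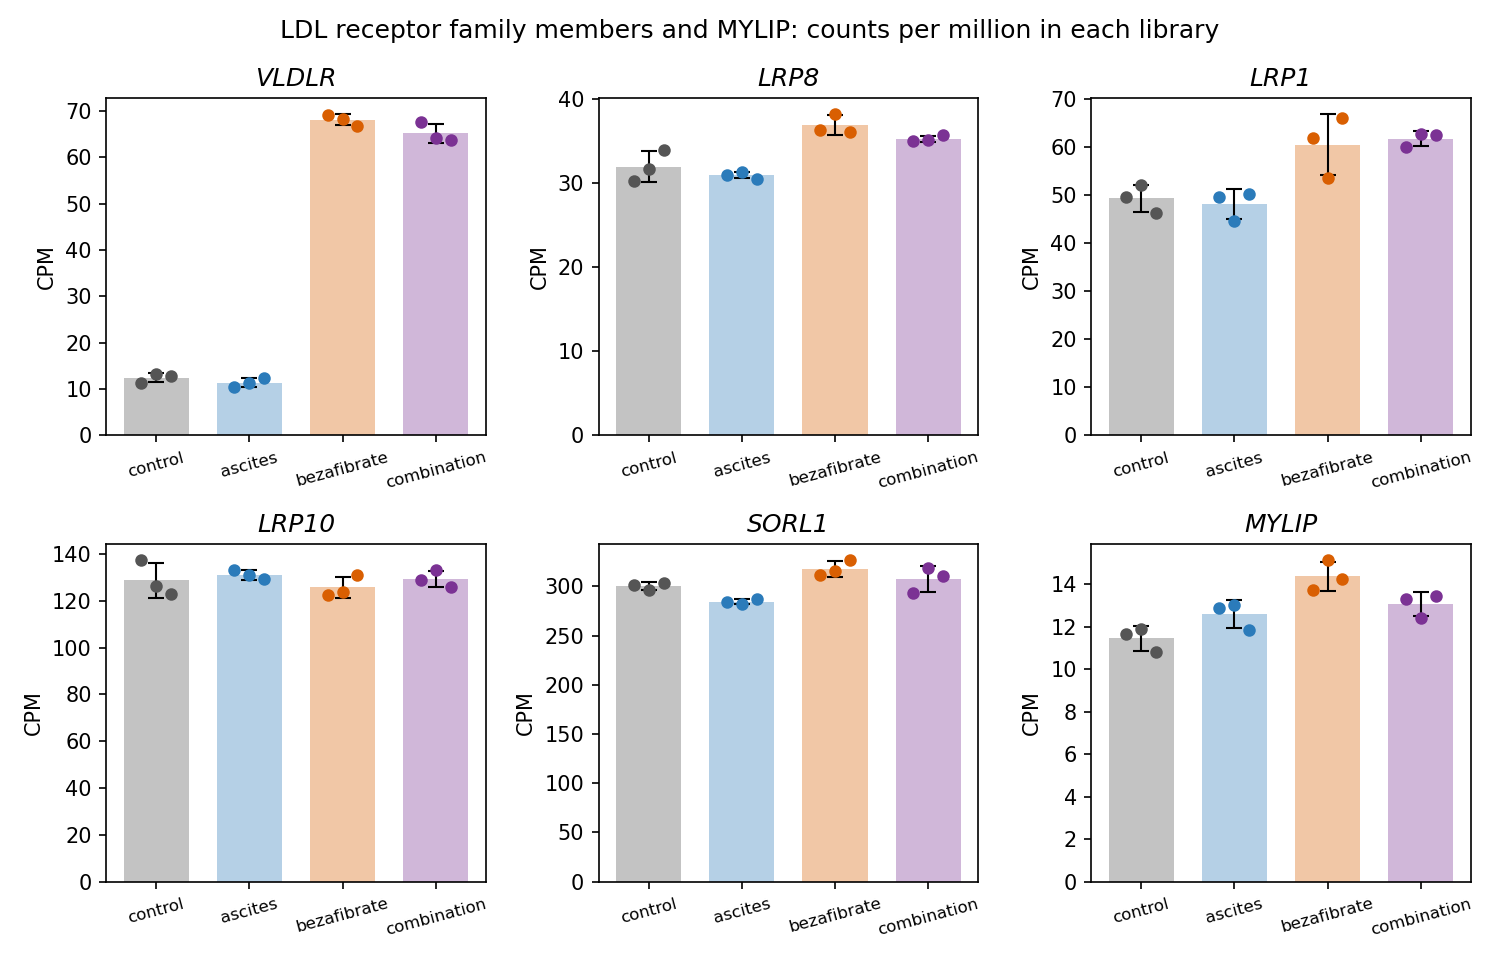
CPM of the 6 tested members (vertical axes from 0, a scale per gene) in the 4 groups; points are the 3 libraries of a group, bars their mean and error bars 1 SD. VLDLR goes from 12.4 CPM in control to 68.2 CPM with bezafibrate, LRP8 and LRP1 rise by less, and LRP10 overlaps across all 4 groups.

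Counted over the members, bezafibrate against control called 4 of 6 higher (VLDLR, LRP8, LRP1 and MYLIP) and 0 lower. Of all tested genes 17.6% were called there, 10.1% higher and 7.55% lower. The combination against ascites also called 4 of 6 higher, with SORL1 in place of MYLIP, where 17.8% of all genes were called, 10.5% higher and 7.29% lower. DESeq2 called 2 of 6 (VLDLR and LRP1) in the first comparison and 3 (with SORL1) in the second. Averaged over ascites the drug called 5 of 6 higher, all but LRP10, against 28.3% of all genes called, 15% higher and 13.2% lower. The median log2 fold change of the 6 in that average was 0.20, against -0.0047 for all genes tested. The combination against control called VLDLR and LRP1 higher, at 2.40 and 0.32 on the log2 scale, and 18.2% of all genes, 10.3% higher and 7.96% lower. That comparison and bezafibrate against control share the control libraries.

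Separation of the libraries gave a like picture. All 6 libraries with the drug lay above all 6 without it for VLDLR, LRP8 and LRP1, which 9.01% of all tested genes did, and 0 of 6 members lay below, which 6.32% did. Bezafibrate and control did not overlap for 5 of 6 members, all but LRP10, and for 33.5% of all genes. The combination did not overlap ascites for 4 of 6 (VLDLR, LRP8, LRP1 and SORL1; 30.5% of all genes) or control for 4 of 6 (VLDLR, LRP8, LRP1 and MYLIP; 30.2%). It lay below bezafibrate without overlap for LRP8 and MYLIP, a separation in either direction that 9.27% of all genes had.

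The ascites comparisons asked whether any family gene moved with the fluid. With edgeR's quasi-likelihood test 0 of 6 members were called with ascites against control, where 0.0882% of all genes were called. Of the members, 1 (SORL1) had an unadjusted p under 0.05, and DESeq2 called 0. In edgeR 749 of the 12470 genes tested had such a p. The largest values were 0.13 for MYLIP (SE 0.0976, 95% interval -0.06 to 0.33) and -0.12 for VLDLR (SE 0.093, 95% interval -0.31 to 0.07). In drug-treated cells 0 of 6 were called by edgeR or DESeq2, where edgeR called 0.128% of all genes. There 0 of 6 had an unadjusted p under 0.05, beside 597 of the 12470 genes in edgeR. Averaged over the drug, 0 of 6 were called, with 1 at an unadjusted p under 0.05 in both tools, beside 0.281% of all genes, 0.0481% higher and 0.233% lower. That 1 was SORL1 at -0.06 on the log2 scale, with a 95% interval of -0.11 to -0.02 (edgeR adjusted p 0.435). In this average 869 of the 12470 genes had an unadjusted p under 0.05 in edgeR.

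**Figure D2:**
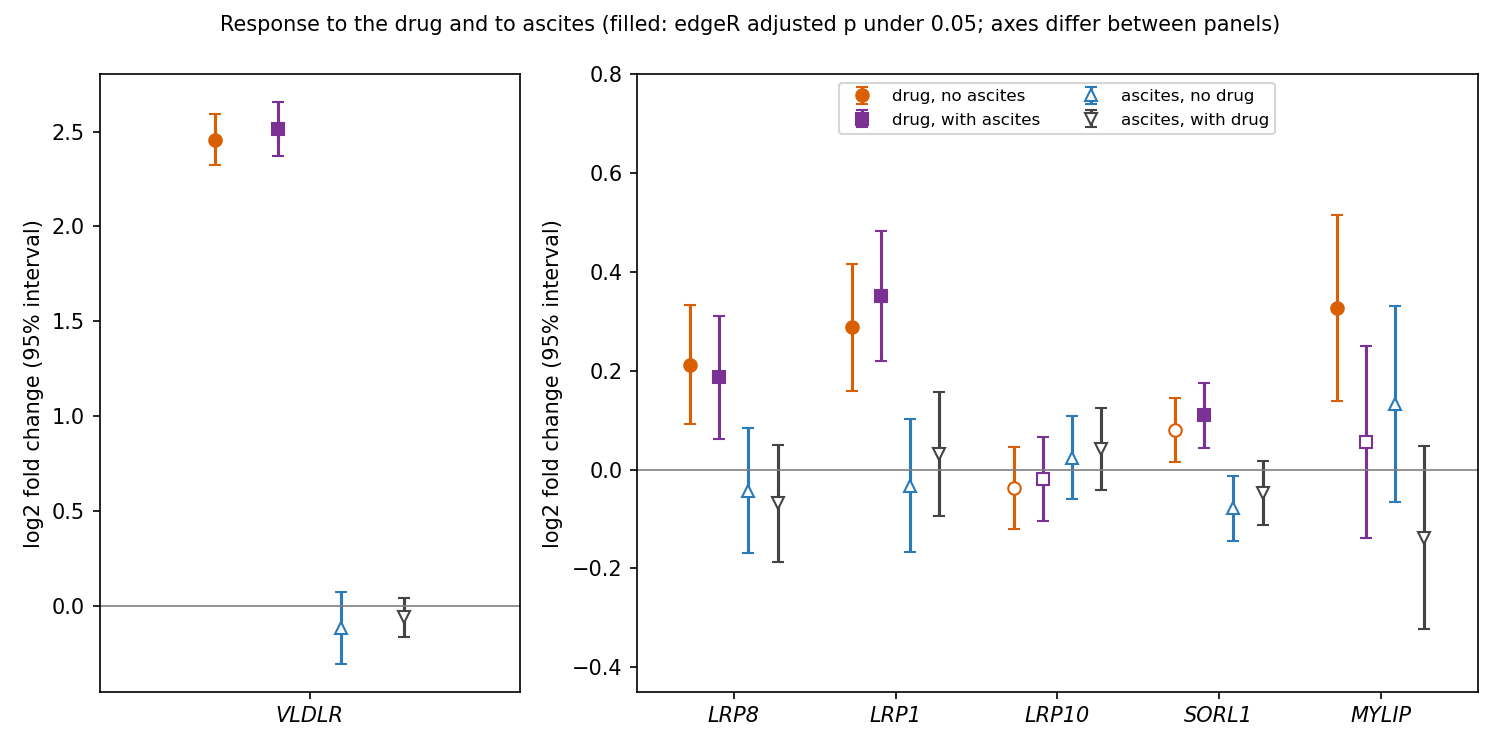
Log2 fold changes with 95% intervals for the drug without and with ascites and for ascites without and with the drug; filled symbols passed an edgeR adjusted p of 0.05 and the vertical axes differ between the panels. VLDLR stands at 2.46 and 2.51 for the drug, LRP8, LRP1, SORL1 and MYLIP lie between 0.06 and 0.35, and no ascites symbol is filled.

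The list of 12 sterol-driven genes, enzymes of cholesterol synthesis with the sensor INSIG1 and the carrier STARD4, had 9 called lower and 0 higher in the averaged ascites effect, with a median log2 fold change of -0.16. Of all genes tested 0.233% were called lower in that effect. In ascites against control 3 of the 12 were called lower, and in the combination against bezafibrate 5, each beside 0.0882% of all genes. INSIG1 fell by 0.37 on the log2 scale (SE 0.039, edgeR adjusted p 1.14e-07), and STARD4 was at -0.29 (SE 0.0737, edgeR adjusted p 0.107). The 6 members had a median of -0.03 there, with 0 called, and all genes tested had a median of -0.00050. With the drug, 9 of the 12 sterol genes were called higher and 1 (HMGCS1) lower, with a median of 0.20 in the average. Of all genes tested 15% were called higher and 13.2% lower in that average. The squalene synthase gene FDFT1 rose by 0.53 (SE 0.0264, edgeR adjusted p 7.21e-19) and INSIG1 by 0.47 (SE 0.039, edgeR adjusted p 1.64e-12). Beside these, LRP8 was at 0.20 with the drug and at -0.06 with ascites (95% interval -0.14 to 0.03). LRP1 was at 0.32 with the drug, and its ascites effect had a 95% interval of -0.09 to 0.09. The difference between the list and the members was not tested.

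All 12 genes of the PPAR list were called higher in the averaged drug effect, with a median of 1.57. Of all genes tested 15% were called higher there and 13.2% lower. PDK4, a brake on pyruvate oxidation, was at 4.07 and the fatty acid carrier FABP4 at 3.73. VLDLR at 2.49 (SE 0.0482) lay within the range of that list, which ran from 0.45 for ACADVL to 4.07. This list and the sterol, LXR and ATF4 lists were chosen with earlier results of these data known. Their counts, and the place of VLDLR in the PPAR range, are a description only. Of the 6 LXR targets other than MYLIP, 4 were called higher and 1 (SREBF1, at -0.15) lower. The LXR gene NR1H3 rose by 1.10 and the sterol exporter ABCG1 by 0.96, and MYLIP, a target of the same receptors, was at 0.19 (SE 0.0668, 95% interval 0.06 to 0.33). Of 10 ATF4 targets, 6 were called higher with a median of 0.13. The largest were CHAC1 at 0.28 (SE 0.106, edgeR adjusted p 0.0441), a call lost in 14 of 20 alternatives, and TRIB3 at 0.28 (SE 0.057, edgeR adjusted p 0.000224). In the averaged ascites effect the medians were -0.02 for the PPAR list, -0.05 for the LXR list and -0.0004 for the ATF4 list. Among the largest values there were -0.11 for CREB3L3, -0.11 for SREBF1 and 0.10 for NR1H3, and 0.28 for ATF3 and -0.10 for SESN2 (edgeR adjusted p 0.153 to 0.858).

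**Figure D3:**
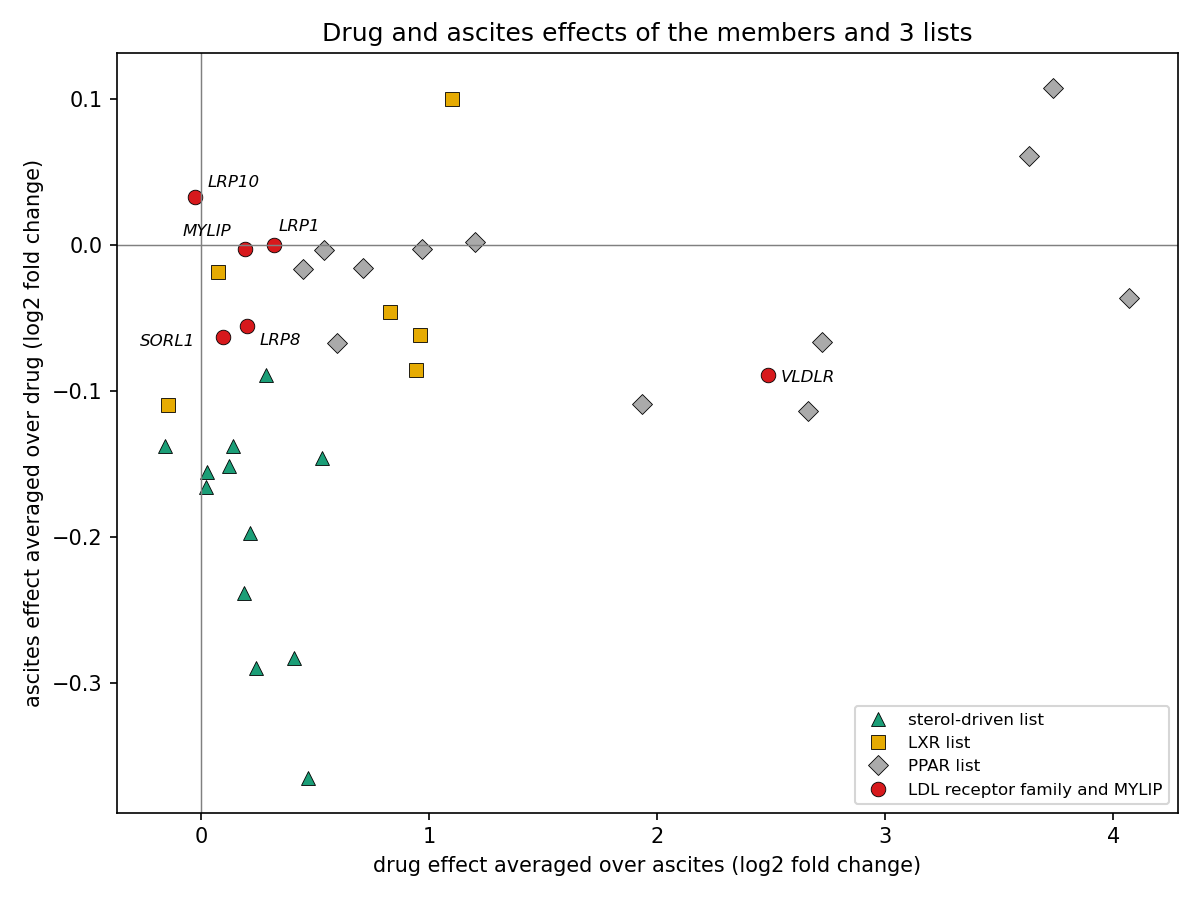
Averaged drug effect (horizontal) against averaged ascites effect (vertical), both as log2 fold changes, 1 point per gene, for the 6 tested members and the sterol-driven, LXR and PPAR lists. VLDLR lies among the PPAR genes at 2.49, the other members lie near the origin, and the sterol genes lie below 0 on the ascites axis.

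The interaction asked whether the drug's effect on a member differed when ascites was present. With edgeR 0 of 6 members were called, as were 0% of all genes, and DESeq2 called 0. MYLIP was the 1 member with an unadjusted p under 0.05 in edgeR (p 0.0498, edgeR adjusted p 0.999), at -0.27 on the log2 scale with an SE of 0.134. In DESeq2 0 members had an unadjusted p under 0.05. Over all genes, 445 had an unadjusted p under 0.05 in edgeR and DESeq2 called 0. For VLDLR the difference between its drug effects was 0.06 (95% interval -0.16 to 0.27), against an average drug effect of 2.49.

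Among 7 further receptors of the family, 5 were tested and 1 changed in the averaged drug effect, where 28.3% of all genes were called. LRP5, a co-receptor for Wnt ligands, rose from 247.1 ± 9.48 CPM in control to 319.1 ± 4.60 with bezafibrate, and from 255.1 ± 2.76 with ascites to 323.8 ± 10.8 with both (SD, n = 3). The averaged change, 0.36 on the log2 scale (SE 0.0231, edgeR adjusted p 1.46e-15), was called in all 20 alternatives. Its fellow Wnt co-receptor LRP6 was at -0.07 (SE 0.0318, edgeR adjusted p 0.124). Under upper-quartile scaling 2 receptors of this list were called lower in that average, and under library totals alone 1. These scalings called 3693 and 3680 of all genes, of which 43.3% and 44.2% were higher. The main fit called 3525, of which 53.2% were higher. In the combination against control LRP6 was called lower at -0.15 (edgeR adjusted p 0.0161) and LRP4, which acts at the neuromuscular synapse, at -0.32 (edgeR adjusted p 0.0324; DESeq2 adjusted p 0.129). The LRP6 call was lost without control replicate 3, combination replicate 1 or combination replicate 2 (edgeR adjusted p 0.0708 to 0.0867), and the LRP4 call without control replicate 1 or 2 or any combination replicate (edgeR adjusted p 0.0522 to 0.138). LRP1B and LRP3 had too few counts for a test. SORT1, the sortilin gene and the only other VPS10 sorting receptor with counts enough to test, went the opposite way to SORL1, from 106.9 ± 4.75 CPM in control to 93.2 ± 1.79 with bezafibrate (SD, n = 3), an average of -0.17 on the log2 scale (SE 0.0328, edgeR adjusted p 5.91e-05).

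Of 7 tested chaperones and endocytic adaptors, 1 was called higher and 0 lower in the averaged drug effect. Of all genes tested 15% were called higher there and 13.2% lower. The called gene was PICALM, a clathrin assembly protein, at 0.19 (SE 0.024, edgeR adjusted p 4.21e-08). The folding chaperone LRPAP1 was at 0.04 (SE 0.0462, edgeR adjusted p 0.571). DAB2, a cargo adaptor, was called lower in the combination against control at -0.19 (edgeR adjusted p 0.00687), a call lost without combination replicate 1 (edgeR adjusted p 0.0728). That comparison called 7.96% of all genes lower. Under upper-quartile scaling 2 genes of this list were called lower in the averaged drug effect, and under library totals alone 1. Of all called genes 43.3% and 44.2% were higher under these scalings, against 53.2% in the main fit. DAB1, the adaptor of reelin signalling, had 0 counts in every group. None of the 5 partners of MYLIP, the conjugating enzymes UBE2D1 to UBE2D4 and the deubiquitinase USP2, passed the test in any comparison, and their averaged drug effects ran from -0.16 for USP2 to 0.04 for UBE2D4. The averaged drug effect, the comparison with the most calls, called 28.3% of all genes.

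Of 11 ligands of these receptors, 9 were tested, and the averaged drug effect called 2 higher and 4 lower. Of all genes tested it called 15% higher and 13.2% lower. The growth factor MDK rose by 0.21 (SE 0.0425, edgeR adjusted p 0.000148), though its change in the combination against ascites was not called (edgeR adjusted p 0.0958). The secreted chaperone CLU fell by 0.35 (SE 0.0361, edgeR adjusted p 4.81e-10), the coagulation inhibitor TFPI fell by 0.17 and the protease PLAT fell by 1.04. PLAT had 54 counts over the control libraries and 34 over the bezafibrate ones, a comparison in which it was not called (edgeR adjusted p 0.0783). Its call in the combination against ascites (edgeR adjusted p 0.0233) was lost with DESeq2 (adjusted p 0.0938). It was kept in 8 of 12 fits leaving out 1 library. THBS1 was called lower at -0.10 by edgeR (adjusted p 0.0303) and not by DESeq2 (adjusted p 0.0759). RELN and LPL, ligands of VLDLR in other tissues, had at most 2 counts in any group.

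The genes with profiles nearest to each called member over the 12 libraries were found as those with the smallest root mean square difference of centred log2 CPM, among 11858 genes with at least 1 CPM on average. For VLDLR they included OAS1 (0.081) and the lipid droplet coat gene PLIN2 (0.145), with averaged drug effects of 2.40 and 2.72. For LRP8 they were LPIN2, LGR4 and CMPK1, with differences of 0.0388, 0.0399 and 0.0401. For LRP1 they were SLC25A46 (0.06), PDK3 (0.0688) and SIK1 (0.0697). For SORL1 they were KDM2A, LAMC1 and CDV3, and for MYLIP PLSCR1, ARFGAP3 and OSTF1. The libraries share the drug contrast that dominates the data, so this nearness is a description of shape and size only.

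Library depth overlapped between groups with and without the drug. Totals were 12550494 to 14653487 counts in control, 12698307 to 14816993 with ascites, 14639939 to 18762759 with bezafibrate and 11831093 to 17120740 with both. Of the 17 markers of other cells, 7 were tested, and 1 (CD68) was called higher and 3 (COL1A1, COL3A1 and LUM) lower in the averaged drug effect. Of all genes tested 15% were called higher and 13.2% lower there. The summed level of all 17 was 270.3 to 272.2 CPM in control, 262.1 to 271.7 with ascites, 262.7 to 269.8 with bezafibrate and 259.2 to 272.1 with both. Without LUM and CD68, which make up most of it, the other 15 summed to 13.8 to 15.1, 13.1 to 15.7, 10.3 to 11.4 and 10.3 to 12.7 CPM in the same order. Their part in the members' changes was not tested. VLDLR, LRP8, LRP1, SORL1 and MYLIP overlap other RefSeq genes, VLDLR-AS1, LRP1-AS and SORL1-AS1 among them, that are not in the count tables, and strandedness is not given in the sources used here, so reads from them cannot be told apart from the gene's own.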

How the data were processed

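Gene counts of 12 CAOV3 libraries, 3 in each of 4 groups, were analysed. The deposited tables give whole-number counts per gene, with an Ensembl identifier joined to a symbol. The submitters' processing notes name GRCh38, Trimmomatic 0.39, STAR 2.7.9a, RSEM 1.3.3 and DESeq2 1.28.1 with no role, and whether the authors rounded RSEM estimates is not given in the sources used here. Annotation and strandedness are not given in the sources used here.

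The low-count filter of edgeR 4.0.16, filterByExpr with a minimum count of 10 and a minimum total of 15, left 12470 of 19677 genes. After TMM scaling, 1 fit over all libraries with 1 mean per group (8 residual degrees of freedom) was tested by edgeR's robust quasi-likelihood F test in R 4.3.3. Calls are Benjamini-Hochberg adjusted p under 0.05 over all genes tested. SEs are the absolute change over the square root of F. CPM values were computed here, and log2 CPM used a prior count of 2. The model was tested on simulated data with changes larger than those of LRP8, LRP1, SORL1 and MYLIP. That test therefore does not cover changes of their size. Replicates were not duplicates (chi-square per degree of freedom 1.44 to 4.45).

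The members, the gene lists and the tests were chosen with earlier results of these data known. All 7 members are named. From the lists of receptors, adaptors, MYLIP partners and ligands, called genes are named, and from the sterol, LXR, PPAR and ATF4 lists the 2 largest in the averaged effects; HMGCS1, ACADVL, LRPAP1, LRP1B, LRP3, DAB1, RELN, LPL and the MYLIP partners were added after their values were seen. Nearest profiles are the 3 closest genes per called member. Some genes that these rules name are not reported here. Alternatives were other scalings, filters, DESeq2 1.42.0, a stricter threshold, the replicate block, fits of 2 groups and leaving out each library. Replicate numbers did not pair samples.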

Additional observations from a re-analysis of the deposited data

How the results depend on the processing

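Of 989 member values under the alternatives, 925 kept their direction and side of the threshold, 27 fell short of it, 3 passed it and 34 changed sign, none of them called. VLDLR and LRP1 stayed called in every alternative of every drug comparison. Members called fell from 4 to 2 with DESeq2 for bezafibrate against control (2 to 5 leaving out 1 library), and from 4 to 2 at an adjusted p under 0.01 and to 2 in a fit of the 2 groups alone for the combination against ascites (2 to 4 leaving out 1 library). Genes called with ascites against control numbered 11, and 59 with no filter, 4 at 0.01, 33 in a fit of the 2 groups and 3 to 24 leaving out 1 library (24 without combination replicate 3). For the combination against bezafibrate the 16 became 52, 6, 7 and 9 to 28 under the same settings. For the combination against ascites the 2214 became 1475 at 0.01 and 1742 to 2188 leaving out 1 library. The averaged ascites count of 35 became 113 with no filter, 19 at 0.01 and 21 to 118 leaving out 1 library (118 without combination replicate 3). The interaction count of 0 became 36 with no filter and 0 to 3 leaving out 1 library. Replicate numbers did not pair the samples: deviations of same-numbered libraries correlated at -0.135 to 0.0613, and 1 library correlated best with its own number. With the replicate block the interaction count was 1, and no member count changed. Signs changed for LRP10 in the combination against control (-0.0137 with upper-quartile scaling, -0.00699 with library totals; -0.0272 to 0.0556 leaving out 1 library) and, in the averaged ascites effect, for LRP1 (5.9e-05 with RLE factors, 0.00448 with totals, 0.000404 with no filter, 0.000475 with a 1 CPM filter; -0.0420 to 0.0328) and MYLIP (0.00239 with totals; -0.0211 to 0.0207). Leaving out 1 library also changed signs in ascites against control for LRP1 (-0.0720 to 0.0196), LRP8 (-0.0797 to 0.00202) and LRP10 (-0.00589 to 0.0753), in bezafibrate against control for LRP10 (-0.0685 to 0.0132), in the combination against bezafibrate for LRP1 (-0.0529 to 0.0959), and in the interaction for VLDLR (-0.000946 to 0.124), LRP8 (-0.0706 to 0.0120), LRP1 (-0.0219 to 0.126) and LRP10 (-0.0330 to 0.0472). The causes were not tested. Scaling moved the median of all genes by less than 0.1, and the share of called genes that were higher fell from 53.2% to 43.3% in the averaged drug effect with upper-quartile scaling. LRP2 is limited by its depth.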

Other observations

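Some markers of the cell line moved with the drug. KRT7, a keratin of simple epithelia, rose from 762.1 ± 6.53 CPM in control to 1118 ± 41.7 with bezafibrate (SD, n = 3), an average of 0.56 on the log2 scale (SE 0.0213, edgeR adjusted p 2.61e-22). PAX8, a transcription factor of the Müllerian lineage, was called higher at 1.07 (SE 0.35, edgeR adjusted p 0.0189), from 16 counts over the control libraries and 55 over the bezafibrate ones. With ascites present the PAX8 change was not called (0.66, SE 0.506, edgeR adjusted p 0.44), with 20 counts over the ascites libraries and 31 over the combination ones, nor was the combination against control (0.95, edgeR adjusted p 0.246). KRT8 was at -0.03 and KRT18 at -0.02. The collagen genes COL1A1 and COL3A1 fell by 0.68 and fell by 0.84 on the log2 scale (edgeR adjusted p 6.89e-06 and 4.78e-06), from 6.23 ± 0.697 and 3.90 ± 0.189 CPM in control (SD, n = 3). CD68, a lysosomal membrane protein gene, rose by 0.32 (SE 0.033, edgeR adjusted p 4.44e-10).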
